A study of Mus musculus with 30 samples.

Results

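The long noncoding RNA genes Neat1, Malat1, Gas5, Miat, Dancr, Snhg1, Snhg12, Epb41l4aos and Pvt1 were followed through all libraries as reference transcripts for the perturbation of another long noncoding RNA, CASC15. They were chosen by name, and all 9 were found by Ensembl identifier among the 78334 gene identifiers of the count table. A count filter left 8 of them to test, in both sequencing runs, among 15350 genes in run 2 and 15103 in run 3. Miat was the member that did not pass it.

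RNA was sequenced as paired reads of 75 bp from 30 libraries labelled as mouse aortic smooth muscle cells, in 9 groups. In run 2 the groups were a control GapmeR (2 libraries), knockdown of total CASC15 (2), a control for overexpression (3) and overexpression of total CASC15 (3), all without treatment. In run 3 each of 5 groups held 4 libraries: a knockdown control that was left untreated, given angiotensin II or given PDGF-BB, and knockdown of long CASC15 that was left untreated or given angiotensin II. Before use the cells spent 48 h in serum-free medium, and transfection, with GapmeRs and plasmids at 1 µg/ml, lasted 24 h or more. Angiotensin II was used at 10 ng/ml and PDGF-BB at 10 to 30 ng/ml, each for 24 h. A GapmeR is an antisense oligonucleotide that directs RNase H to the RNA it pairs with. The labels of run 3 name a knockdown control without saying whether it was a GapmeR or a small interfering RNA, and the transcripts meant by "total" and "long" CASC15 are not described. Each library also carries a batch label, P16 to P19, with at most 1 library per group in a batch.

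Long noncoding RNAs act as RNA rather than as templates for protein. Neat1 is the scaffold of paraspeckles, nuclear bodies that hold RNA-binding proteins, and Malat1, its neighbour on the chromosome, collects in nuclear speckles beside splicing factors. Gas5, Snhg1, Snhg12, Dancr and Epb41l4aos are hosts of small nucleolar RNAs (snoRNAs), which guide the modification of ribosomal RNA and are cut from the introns of their host. Gas5 was named for its accumulation in growth-arrested cells, and its spliced RNA is known to begin with a run of pyrimidines (a 5′ terminal oligopyrimidine, or TOP, start) that ties its decay to translation. Pvt1 lies beside the Myc gene, Dancr is known for holding back differentiation, and Miat is known mainly from neurons and retina.

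Start sites are shown for 6 members with a RefSeq promoter window (build GRCm38.p6). They are given because a TOP start is a feature of several snoRNA hosts and can be read from the sequence alone. Each line gives 25 bases before the annotated start and 35 bases from it, 5′ to 3′ on the gene's strand, and capitals mark the unbroken run of C and T that begins at the start site. Neat1, Epb41l4aos and Pvt1 are named only.
Gas5, chr1:161034576-161034635, + strand: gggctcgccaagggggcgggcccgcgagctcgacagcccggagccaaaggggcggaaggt
Gas5, chr1:161035141-161035200, + strand: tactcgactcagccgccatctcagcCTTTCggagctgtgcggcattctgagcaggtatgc
Snhg1, chr19:8723462-8723521, + strand: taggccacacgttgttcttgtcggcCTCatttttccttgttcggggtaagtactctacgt
Snhg12, chr4:132308653-132308712, + strand: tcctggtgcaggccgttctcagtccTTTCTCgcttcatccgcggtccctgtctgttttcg
Dancr, chr5:74093035-74093094, + strand: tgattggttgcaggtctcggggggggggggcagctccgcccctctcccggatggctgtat
Malat1, chr19:5802638-5802697, - strand: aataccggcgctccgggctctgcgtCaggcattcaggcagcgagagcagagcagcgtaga
Miat, chr5:112228914-112228973, - strand: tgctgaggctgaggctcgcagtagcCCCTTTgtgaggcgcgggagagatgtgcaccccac

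The rule for a TOP start was a C at the start site followed by at least 4 more C or T, on the gene's strand only. It was met by 2 of the 7 member windows shown, the second of the 2 starts that RefSeq gives for Gas5 and the start of Miat. Over all chromosomes, 823 of 32851 windows (2.51%) met it. Snhg12 has a longer pyrimidine run than Gas5 but begins with T, and in Snhg1 an A ends the run at the fourth base. Dancr and the first Gas5 start begin with G, and Malat1 has a single C. A match describes these letters and is not evidence of how the RNA is translated or decayed.

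A gene annotation of the build GRCm38 (GENCODE M21) places 25 snoRNA genes inside 5 members, on the same strand: 10 in Gas5, 8 in Snhg1, 5 in Snhg12, 1 in Dancr and 1 in Epb41l4aos. Of these, 23 had a row in the count table, and together they held 2.94 expected counts over all 30 libraries. The values below are therefore those of the host transcripts and say nothing of the snoRNAs. In the same annotation no exon of a member overlapped an exon of a protein-coding gene, and the overlapping antisense genes held at most 35 counts over all libraries. The labels do not say whether polyadenylated RNA was selected, which bears on the level of Neat1 and Malat1 because the 3′ end of Malat1 and of the long Neat1 form is not polyadenylated.

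Libraries held 18007199 to 21881959 expected counts in run 2 and 15771490 to 30362047 in run 3, and the common biological coefficient of variation was 0.232 and 0.148. The 8 smooth muscle markers summed to 665.5 to 1216 CPM (counts relative to library size, with TMM scaling), most of it from Cald1, Acta2 and Smtn, while the defining contractile genes were near the floor: Cnn1 had a median of 0, Myh11 of 0.282, Lmod1 of 0.635 and Tagln of 1.26 CPM. Fibroblast markers, mainly Col1a1 and Dcn, summed to 2640 to 4293 CPM, endothelial markers to 0.356 to 10.1 and leukocyte markers to 0.479 to 2.97 CPM outside the libraries labelled total knockdown, with Cd3e and Tyrobp at 0 in every library. The mouse gene 2610307P16Rik is read here as CASC15 from its place near Sox4 and its rise with overexpression, since no table used here pairs the names, so that rise is a description and no check of the labels. It went from 6.42 ± 2.34 (SD, n = 3) to 716 ± 174 CPM (SD, n = 3) with overexpression. Long knockdown lowered it from 5.52 ± 0.530 to 2.87 ± 0.561 CPM in untreated cells and from 5.27 ± 0.630 to 3.04 ± 0.603 CPM under angiotensin II (SD, n = 4 each, edgeR adjusted p = 0.000832 and 0.00372). PDGF-BB in control cells also lowered it, to 3.605 ± 0.831 CPM (SD, n = 4, edgeR adjusted p = 0.0101). In the libraries labelled total knockdown it was not lower, at 9.01 ± 1.02 CPM against 7.02 ± 0.913 in the control GapmeR libraries (SD, n = 2 each, edgeR adjusted p = 0.739), so the direction of that comparison rests on the labels alone.

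The name "abundant" fitted some members and not others. Between genes only levels per length can be compared, so CPM was divided by the length of annotated exons in kb. In run 3, Malat1 reached 202 CPM per kb, Neat1 94.9, Epb41l4aos 75.7 and Gas5 68.9, which placed each of them among the top 2.08% of 25352 genes with a count. Snhg1 stood at 20.9 CPM per kb (top 9.05%), Snhg12 at 5.84 (top 26.6%) and Pvt1 at 3.65 (top 32.8%). Dancr stood at 1.36 CPM per kb (top 42.2%), against a median of 0.416 over the genes with a count. In run 2 the order was different: Epb41l4aos came first with 135 CPM per kb, followed by Gas5 with 57.0, Malat1 with 55.4 and Neat1 with 37.9. These values depend on the annotation, since the annotated exons of Epb41l4aos cover 430 bases and those of Neat1 cover 20771 bases, most of which the short Neat1 form lacks. The count table lists more transcripts than the annotation used for lengths, 19 against 2 for Epb41l4aos and 555 against 10 for Pvt1. The lengths may thus not match what was counted, and the ranks are approximate.

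Miat was all but undetected. It had 4 expected counts in total, in 3 of the 30 libraries, and 0 in the other 27. The libraries with a count were control plasmid in P19 (0.113 CPM), control with PDGF-BB in P19 (0.0509 CPM) and long knockdown with angiotensin II in P16 (0.0513 CPM). No change of Miat could be tested at this depth.

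**Figure D1:**
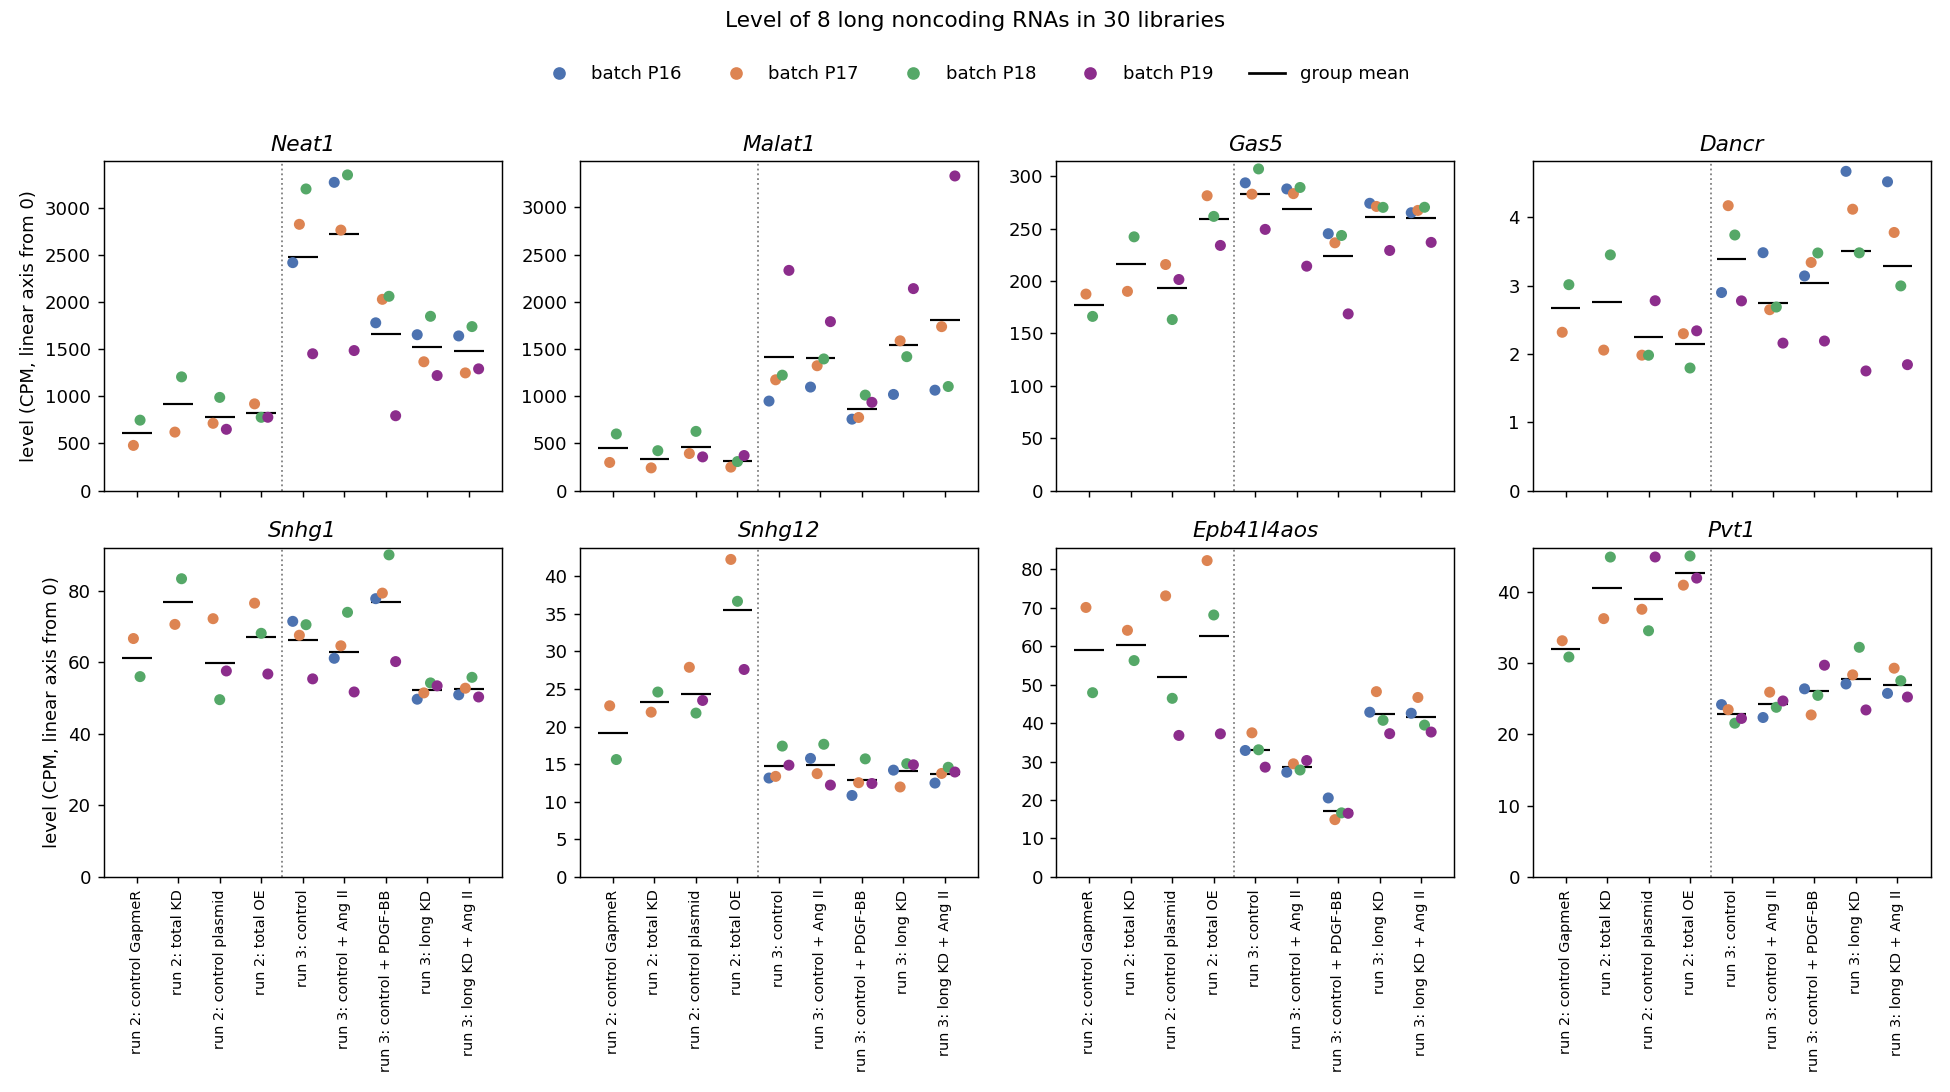
Level of the 8 tested members in CPM (y axis, linear from 0) in each of the 30 libraries, by group (x axis); points are libraries coloured by batch, black bars are group means, and the dotted line separates run 2 from run 3, which were fitted separately. Malat1 lies higher in run 3, as does Neat1 apart from the P19 library with PDGF-BB (794 CPM), which lies within the range of run 2. Batch P19 lies low for Gas5 in all 5 groups of run 3, and the 4 PDGF-BB libraries of Epb41l4aos lie below every other library of run 3.

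The untreated knockdown controls of the runs differed in level for several members, with no test because the runs were fitted separately and the run cannot be told apart from the control agent and the sequencing. Neat1 had 613 ± 189 CPM in run 2 (SD, n = 2) and 2473 ± 752 in run 3 (SD, n = 4). Malat1 had 450 ± 214 and 1420 ± 621 CPM. Epb41l4aos was lower in run 3, at 33.0 ± 3.64 against 59.0 ± 15.7 CPM, and so was Pvt1, at 22.8 ± 1.18 against 32.0 ± 1.61 CPM. Snhg1 had close values, 61.3 ± 7.53 and 66.2 ± 7.42 CPM. The share of counts on mitochondrially encoded genes also differed between the runs, from 0.732% to 2.10% in run 2 and from 1.66% to 3.23% in run 3, and its part in these levels was not tested.

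Within run 3, batch P19 stood apart for some members in every or nearly every group. Gas5 and Dancr were lowest in P19 in 5 of 5 groups, Neat1 and Snhg1 in 4 of 5, and Malat1 was highest in P19 in 4 of 5. Pvt1 and Snhg12 showed no such side, with P19 lowest in 2 and 1 of 5 groups. The 10 proliferation genes summed to 371 CPM in the untreated control of P19 and to 195 to 245 CPM in the other 3 batches. Every group of run 3 holds 1 library of each batch, and counts and calls below are given with the batch as a replicate block as well where they change.

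With overexpression of total CASC15, the gene read as its target was 111-fold higher, and the members show whether other long noncoding RNAs moved with it. None of the 8 tested members passed an adjusted p of 0.05, against 1.65% of all genes tested. At an unadjusted p under 0.05 there were 2, Gas5 and Snhg12, beside 2295 of 15350 genes. DESeq2 called 0 members and 807 genes. With the replicate block 1 of 8 passed, Snhg12, against 17.7% of all genes. The 10 proliferation genes had positive changes with a median log2 fold change of 0.68, of which 0 passed without and 10 with the replicate block. Their sum was 132, 154 and 547 CPM in the controls of P17 to P19 and 216, 298 and 798 CPM with overexpression. Of 7 smooth muscle markers tested 0 rose and 1 fell, Myl9 (5.60 ± 0.985 to 2.27 ± 0.390 CPM, SD, n = 3 in each group), and 2 fell with the block. The list summed to 698 to 1216 and to 666 to 1050 CPM. The 5 neural markers summed to 21.4 to 23.1 CPM in the controls and to 9.81 to 14.4 CPM with overexpression, and of 3 tested 0 fell without and 3 with the block. The 5 epithelial markers summed to 44.6 to 64.2 and to 66.4 to 150 CPM, without overlap. The fibroblast sums, 2739 to 3997 and 2971 to 4009 CPM, and the leukocyte sums, 0.991 to 1.59 and 0.479 to 2.34 CPM, overlapped. All 13 mitochondrially encoded mRNAs had negative changes (median log2 fold change -0.35), and 0 passed in either fit. The part of these values in the changes of the members was not tested.

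Snhg12, a snoRNA host, had 27.9, 21.8 and 23.5 CPM in the control plasmid libraries of P17, P18 and P19, and 42.2, 36.7 and 27.6 CPM with overexpression. It was higher with overexpression in all 3 batches, but the P19 library with overexpression lay just below the highest control. Its log2 fold change was 0.54 ± 0.19 (SE, edgeR adjusted p = 0.224), and 0.53 with the replicate block (edgeR adjusted p = 0.0236). Gas5 had 216, 163 and 201 CPM in the control libraries and 281, 262 and 234 CPM with overexpression. Its log2 fold change of 0.42 ± 0.14 (SE) did not pass the test, with an edgeR adjusted p of 0.200, nor with the replicate block (edgeR adjusted p = 0.0512). Malat1 had a log2 fold change of -0.57 ± 0.33, Epb41l4aos of 0.26 ± 0.32, Snhg1 of 0.17 ± 0.16, Pvt1 of 0.13 ± 0.13, Neat1 of 0.07 ± 0.27 and Dancr of -0.06 ± 0.30 (SE, edgeR adjusted p from 0.459 to 0.954).

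In the libraries labelled total CASC15 knockdown, 0 of 8 members passed, against 2.07% of all genes, and 0 with the replicate block, against 14.4%. An unadjusted p under 0.05 was reached by 0 members and 1975 of 15350 genes, and DESeq2 called 0 and 719. The 8 leukocyte markers summed to 17.4 and 21.2 CPM in the libraries labelled knockdown and to 0.668 and 0.840 CPM in their controls. Of 3 tested 2 rose, Cd68 (0.430 ± 0.230 to 15.8 ± 0.181 CPM, SD, n = 2 in each group) and Csf1r. Of 7 smooth muscle markers tested 1 rose and 0 fell in both fits, and the list summed to 689.5 and 690.2 CPM in the controls and to 692.5 and 753.1 in the libraries labelled knockdown. Endothelial markers summed to 2.81 and 3.90 CPM in the controls and to 6.02 and 10.1 in the libraries labelled knockdown (0 of 2 tested passed, and 2 rose with the block). The epithelial sums were 44.2 and 45.1 against 72.5 and 95.5 CPM (0 of 2, and 1 rose with the block), and the fibroblast sums 2943 and 2985 against 2640 and 2768 CPM (0 of 6, and 2 fell with the block). The proliferation genes summed to 92.9 and 101 CPM in the controls and to 163 and 258 CPM in the libraries labelled knockdown, and 0 passed without and 9 of 10 with the block. The part of these genes in the values of the members was not tested. Pvt1 had 33.1 and 30.8 CPM in the control GapmeR libraries and 36.2 and 44.8 in the libraries labelled knockdown (log2 fold change 0.34 ± 0.16, SE, edgeR adjusted p = 0.398). Gas5 had 188 and 166 CPM against 190 and 242, and Snhg1 had 66.6 and 56.0 against 70.6 and 83.3. In these 3 of 8 members the groups of 2 did not overlap, as in 49.4% of all genes tested. The log2 fold changes of the 8 members ran from -0.44 (Malat1) to 0.57 (Neat1), and leaving out a library moved that of Neat1 between 0.0167 and 0.97.

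The control plasmid was compared with the control GapmeR, although only the plasmid group holds a P19 library. Here 0 of 8 members passed, against 1.18% of all genes. An unadjusted p under 0.05 was reached by 0 members and 1444 of 15350 genes, and DESeq2 called 0 and 347. Log2 fold changes of the members ran from -0.25 to 0.35. All 10 proliferation genes had positive changes (median log2 fold change 2.17), of which 0 passed without and 5 with the replicate block. Their sum was 92.9 and 101 CPM with the GapmeR and 132, 154 and 547 CPM with the plasmid, the highest in P19. All 13 mitochondrially encoded mRNAs had negative changes (median log2 fold change -0.31), and 0 passed in either fit.

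**Figure D2:**
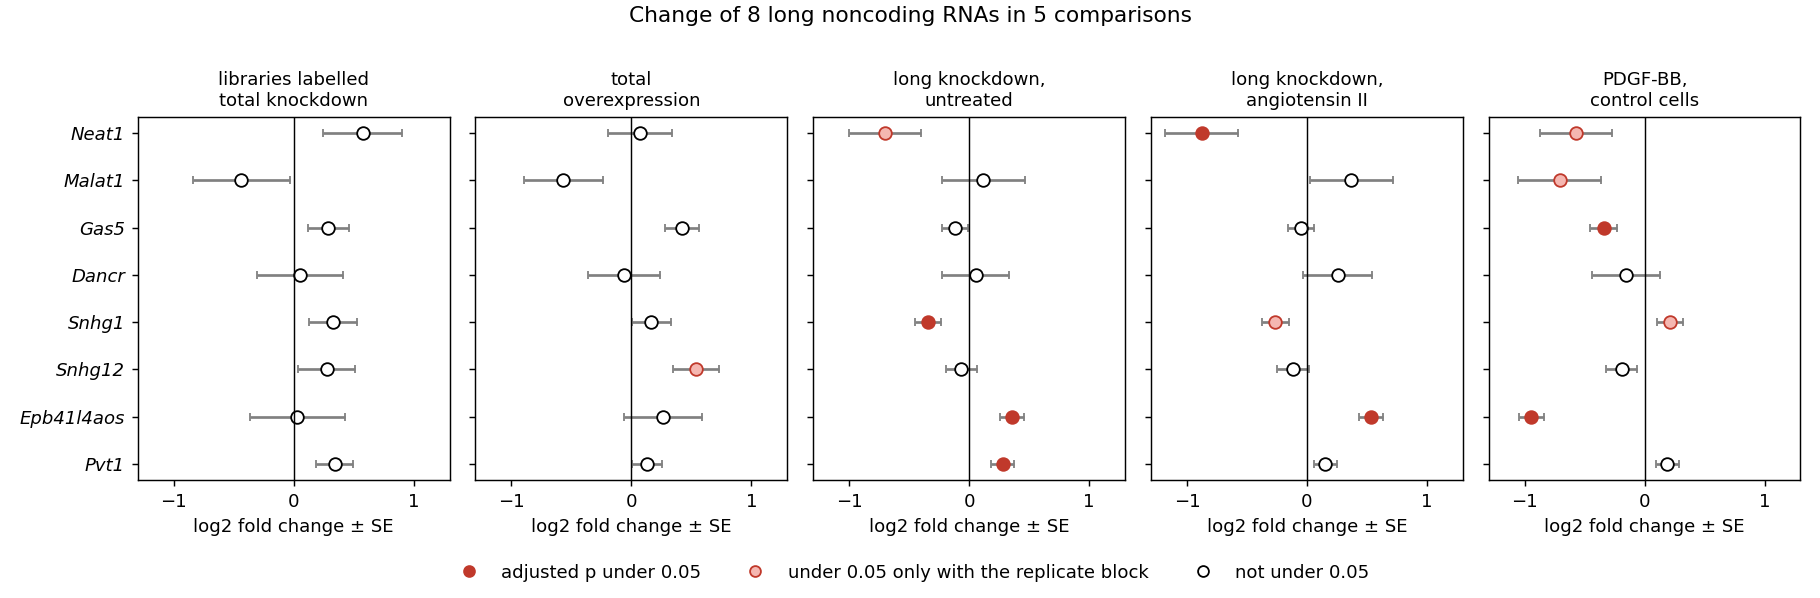
Log2 fold change (x axis, ± SE from the edgeR fit) of the 8 tested members (y axis) in 5 comparisons; filled red points had an adjusted p under 0.05, pale red points only in the fit with the replicate block, and open points in neither. Epb41l4aos is the member with the smallest adjusted p in the 3 comparisons of run 3 shown, at 0.36 and 0.54 with long knockdown and at -0.94 with PDGF-BB.

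Knockdown of long CASC15 in untreated cells changed 3 of 8 members, against 25% of all genes tested, and 3 of 8 is too few to set apart from that background. Epb41l4aos and Pvt1 rose and Snhg1 fell. In bulk RNA such a change can be a change per cell or in the share of cells of a kind, and these cannot be told apart. With the replicate block Neat1 joined them as lower, and 4 of 8 members passed against 40.6% of all genes. DESeq2 called these 4 as well, and 4093 of 15103 genes.

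Epb41l4aos, a short antisense RNA at the Epb41l4a gene that hosts a snoRNA, had 32.9, 37.5, 33.1 and 28.5 CPM in the untreated controls of P16 to P19. With long knockdown it had 42.8, 48.2, 40.7 and 37.3 CPM. It was higher in all 4 batches, and only the P19 knockdown library reached into the control range. The rise was 1.28-fold, with a log2 fold change of 0.36 ± 0.10 (SE, edgeR adjusted p = 0.0125). Without the P19 control library or the P17 knockdown library the adjusted p was 0.0583 and 0.0599.

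Pvt1, the neighbour of Myc, had 24.2, 23.4, 21.5 and 22.2 CPM in the controls and 27.0, 28.3, 32.2 and 23.4 CPM with long knockdown. It was higher in all 4 batches and the groups overlapped through P19. The log2 fold change was 0.28 ± 0.09 (SE, edgeR adjusted p = 0.0333). The call was lost in 8 of 16 refits (adjusted p up to 0.171): the fit without a filter on low counts, the fit of the compared groups alone, and those without the P17, P18 or P19 control or the P16, P17 or P18 knockdown library. Myc itself, a transcription factor of cell growth, fell from 77.2 ± 6.72 to 50.0 ± 13.5 CPM (SD, n = 4 in each group, log2 fold change -0.63, edgeR adjusted p = 0.00609), the opposite direction.

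Snhg1 had 71.4, 67.5, 70.5 and 55.3 CPM in the controls and 49.7, 51.4, 54.2 and 53.4 CPM with long knockdown. Every knockdown library lay below every control library, and the knockdown libraries were close together, at 52.2 ± 2.04 CPM (SD, n = 4) against 66.2 ± 7.42 (SD, n = 4). The log2 fold change was -0.34 ± 0.11 (SE, edgeR adjusted p = 0.0259), and the call was lost in 4 of 16 refits (adjusted p up to 0.0681), those without the P16 or P18 control or the P16 or P17 knockdown library.

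Neat1 had 2417, 2823, 3198 and 1451 CPM in the controls and 1653, 1366, 1848 and 1220 CPM with long knockdown. It was lower in all 4 batches, while the control library of P19 was as low as the knockdown libraries. The log2 fold change was -0.70 ± 0.30 (SE, edgeR adjusted p = 0.101), and -0.66 with the replicate block (edgeR adjusted p = 0.0113). Malat1 did not follow it, with 949, 1174, 1223 and 2333 CPM in the controls and 1019, 1587, 1419 and 2140 with knockdown (log2 fold change 0.12 ± 0.35, SE, edgeR adjusted p = 0.836). Gas5 (log2 fold change -0.12), Snhg12 (-0.07) and Dancr (0.05) did not pass either. The calls were near the threshold: without the P17 library of long knockdown 0 of 8 members passed, and without the P18 control library or the P16 knockdown library 1 of 8 did. The proliferation genes summed to 195 to 371 CPM in the controls and to 115 to 286 with long knockdown, and their part in these changes was not tested.

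Markers of other cells moved with long knockdown in untreated cells. The 5 epithelial markers summed to 97.7 to 129 CPM in the controls and to 36.6 to 69.9 with knockdown, and both that were tested fell, among them Cdh1, the epithelial cadherin (113 ± 12.4 to 46.2 ± 15.5 CPM, SD, n = 4 in each group). The 7 fibroblast markers summed to 3444 to 3938 and to 3167 to 3563 CPM. Of the 5 tested, 2 rose and 2 fell (3 and 2 with the replicate block), with Pdgfra higher (15.1 ± 6.12 to 47.4 ± 24.4 CPM) and Pi16 lower (44.8 ± 9.97 to 12.6 ± 3.55 CPM). Of 7 smooth muscle markers tested 2 rose and 1 fell (2 and 2 with the block), and the list summed to 922 to 1135 and to 819 to 988 CPM. Of 3 neural markers tested 1 rose and 1 fell, Tubb3 (34.8 ± 6.82 to 21.1 ± 3.77 CPM), with a list sum of 33.6 to 47.8 and 25.7 to 39.4 CPM. Of 2 endothelial markers tested 1 rose, and the 8 listed summed to 1.25 to 2.65 and to 1.91 to 3.78 CPM. Cdh1, Pi16 and Tubb3 were also lower, and Pdgfra higher, with long knockdown under angiotensin II. There the endothelial sums, 0.863 to 2.22 and 2.24 to 4.16 CPM, did not overlap, with 1 of 2 higher and 2 with the block. The part of these markers in the changes of the members was not tested.

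Under angiotensin II, long knockdown changed 2 of 8 members, against 26.7% of all genes, and 3 of 8 with the replicate block, against 41.3%. DESeq2 called the same number as the fit without the block, and 4363 of 15103 genes. Neat1 fell and Epb41l4aos rose, and Snhg1 was lower with the block. The proliferation genes summed to 221 to 426 CPM in these controls and to 114 to 272 CPM with long knockdown, and 2 of 10 fell (9 with the block, median log2 fold change -1.31). Their part in the changes of the members was not tested.

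Epb41l4aos had 27.2, 29.4, 27.8 and 30.3 CPM in the controls with angiotensin II and 42.6, 46.7, 39.5 and 37.7 CPM with long knockdown. The groups were well apart, with the lowest knockdown library above the highest control. The rise was 1.45-fold, with a log2 fold change of 0.54 ± 0.10 (SE, edgeR adjusted p = 0.000602), and it passed in all 16 refits (adjusted p at most 0.00377) but was under a minimum change of 1 on the log2 scale.

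Neat1 had 3268, 2762, 3347 and 1485 CPM in these controls and 1640, 1248, 1739 and 1291 CPM with long knockdown. It was lower in all 4 batches, and again P19 was the batch in which the control was low. Its level fell to 1479 ± 247 from 2716 ± 860 CPM (SD, n = 4 each), with a log2 fold change of -0.88 ± 0.30 (SE, edgeR adjusted p = 0.0405, and 0.00313 with the replicate block). Without the replicate block this call was lost when any of 7 of the 8 libraries was left out (edgeR adjusted p from 0.0507 to 0.108), and it was kept without the P19 control.

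Snhg1 had 61.1, 64.6, 73.9 and 51.7 CPM in the controls and 50.9, 52.7, 55.8 and 50.3 CPM with long knockdown, lower in all 4 batches (log2 fold change -0.26 ± 0.11, SE, edgeR adjusted p = 0.0844, and 0.00666 with the replicate block). Pvt1 had a log2 fold change of 0.15 ± 0.09 (SE, edgeR adjusted p = 0.239), while Myc fell by 0.78 on the log2 scale (edgeR adjusted p = 0.0011). Malat1 had 1097, 1323, 1395 and 1790 CPM against 1064, 1737, 1103 and 3333, and did not pass (edgeR adjusted p = 0.470). Gas5, Snhg12 and Dancr had log2 fold changes of -0.05, -0.12 and 0.26.

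Angiotensin II, the vasoconstrictor peptide of the renin-angiotensin system, was compared with no treatment in the control cells and in the long knockdown cells. In each, 0 of 8 members passed, as did 0% of all genes by edgeR, and 0 members had an unadjusted p under 0.05. Over all genes, 156 and 174 had an unadjusted p under 0.05, and DESeq2 called 1 and 0. The members' log2 fold changes ran from -0.30 to 0.14 in control cells and from -0.10 to 0.23 in knockdown cells. The largest in size was Dancr in control cells, at about 3 CPM one of the least precise.

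The interaction tests whether long knockdown acted differently with and without angiotensin II. It called 0 of 8 members and 0% of all genes by edgeR, 0 members and 166 genes had an unadjusted p under 0.05, and DESeq2 called 1 gene. Log2 differences of the members ran from -0.18 to 0.25. So the calls of Pvt1 and Snhg1 in untreated cells and of Neat1 under angiotensin II were not shown to differ between the arms.

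PDGF-BB, a growth factor that drives smooth muscle cells to divide and migrate, was given to control cells. It changed 2 of 8 members, Epb41l4aos and Gas5, both downwards, against 43.6% of all genes tested. With the replicate block 5 of 8 passed, against 54.5% of all genes: Neat1 and Malat1 were lower and Snhg1 was higher. DESeq2 called 2. All 10 proliferation genes rose, and their sum went from 195 to 371 CPM in the controls to 2226 to 2391 CPM, and its part in the changes of the members was not tested. Fibroblast markers moved as well, 2 of 5 tested upwards and 3 downwards (1 and 3 with the replicate block), with a sum of 3444 to 3938 CPM without and 3036 to 4293 with PDGF-BB, and Dcn fell from 1592 ± 102 to 664 ± 109 CPM (SD, n = 4 in each group). Of 7 smooth muscle markers 1 rose and 2 fell, the list summed to 922 to 1135 and to 720 to 815 CPM, and Acta2 fell from 212 ± 12.9 to 111 ± 10.8 CPM. The epithelial sum was 97.7 to 129 without and 157 to 199 CPM with PDGF-BB. The endothelial sums, 1.25 to 2.65 without and 0.356 to 1.05 CPM with it, did not overlap, and 1 of 2 tested fell. Of 3 neural markers tested 1 rose, Tubb3 (34.8 ± 6.82 to 52.1 ± 13.9 CPM), and with the block 1 also fell. The share of counts on mitochondrially encoded genes was 2.57% to 2.92% without and 1.66% to 2.697% with it. The part of these values in the changes of the members was not tested either.

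Epb41l4aos had 32.9, 37.5, 33.1 and 28.5 CPM without treatment and 20.5, 14.9, 16.7 and 16.5 CPM with PDGF-BB. Every treated library lay below every untreated one, and below every other library of run 3. Its level fell to 52.0% of the control, with a log2 fold change of -0.94 ± 0.10 (SE, edgeR adjusted p = 4.71e-07), and this call was kept in all 16 refits (edgeR or DESeq2 adjusted p at most 5.33e-05) and lost under a minimum change of 1 on the log2 scale. Epb41l4a, the protein-coding gene on the other strand, fell too, from 68.6 ± 3.80 to 44.4 ± 2.17 CPM (SD, n = 4 in each group, log2 fold change -0.63, edgeR adjusted p = 5.28e-05). It was not called with long knockdown, where Epb41l4aos rose.

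Gas5 had 294, 283, 307 and 249 CPM without treatment and 245, 236, 243 and 169 CPM with PDGF-BB. The groups did not overlap, although the untreated P19 library was close to the highest treated one, and the level was lower in all 4 batches. The log2 fold change was -0.34 ± 0.11 (SE, edgeR adjusted p = 0.0174), and without the untreated P18 library the adjusted p was 0.0634.

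Neat1 had 2417, 2823, 3198 and 1451 CPM without and 1779, 2028, 2060 and 794 CPM with PDGF-BB. It was lower in all 4 batches, with a log2 fold change of -0.57 ± 0.30 (SE, edgeR adjusted p = 0.138, and 0.0141 with the replicate block). Malat1 had 949, 1174, 1223 and 2333 CPM without and 757, 775, 1012 and 935 CPM with it, also lower in all 4 batches (log2 fold change -0.71 ± 0.35, SE, edgeR adjusted p = 0.111, and 0.0257 with the replicate block). Without the untreated P19 library its log2 fold change was -0.34 (edgeR adjusted p = 0.439). Snhg1 had 71.4, 67.5, 70.5 and 55.3 CPM without and 77.7, 79.3, 89.98 and 60.2 CPM with it, higher in all 4 batches (log2 fold change 0.22 ± 0.11, SE, edgeR adjusted p = 0.117, and 0.0146 with the replicate block). In these 3 members the spread across batches was about as large as the change, and the groups overlapped. Pvt1 (log2 fold change 0.19), Snhg12 (-0.19) and Dancr (-0.15) did not pass in either fit.

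The order of the 5 groups of run 3 showed how far each member separates them. For Epb41l4aos the order ran from untreated long knockdown (42.3 ± 4.58 CPM) and long knockdown with angiotensin II (41.6 ± 3.94) to the untreated control (33.0 ± 3.64), the control with angiotensin II (28.7 ± 1.42) and the control with PDGF-BB (17.2 ± 2.39, SD, n = 4 each). Neighbours in this order did not overlap at 2 of 4 steps, between long knockdown with angiotensin II and the untreated control, and between the controls with angiotensin II and with PDGF-BB. The untreated long knockdown and untreated control, which are not neighbours in it, overlapped. Neat1 ran the other way for knockdown, with both long knockdown groups lowest (1522 and 1479 CPM), and no pair of neighbours in its order was free of overlap. The same held for Gas5, Snhg1, Snhg12, Dancr and Pvt1, and Malat1 had 1 step of 4 without overlap. So 2 of 8 members had a step without overlap in run 3, against 40.8% of all genes tested, and 1 of 8, Pvt1, in run 2, against 50.6%.

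The ratio of Neat1 to Malat1 counts, which does not depend on the scaling of libraries, was added after their values had been seen and is given with no test. In run 2 it was 1.61 and 1.24 with the control GapmeR and 2.57 and 2.85 in the libraries labelled total knockdown. With the control plasmid it was 1.82, 1.58 and 1.82, and with overexpression 3.69, 2.52 and 2.09. In each of these batches the overexpression library and the library labelled total knockdown lay above their own control.

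In run 3 the ratio was 2.55, 2.41, 2.62 and 0.622 in the untreated controls of P16 to P19 and 1.62, 0.861, 1.302 and 0.570 with long knockdown. Under angiotensin II it was 2.98, 2.09, 2.40 and 0.830 in the controls and 1.54, 0.718, 1.58 and 0.387 with long knockdown. Long knockdown thus had the lower ratio in 4 of 4 batches in each arm, at 0.358 to 0.917 of the control in untreated cells and 0.344 to 0.657 under angiotensin II, while P19 held Neat1 below Malat1 in every group. With PDGF-BB the ratio was higher in 2 batches and lower in 2.

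**Figure D3:**
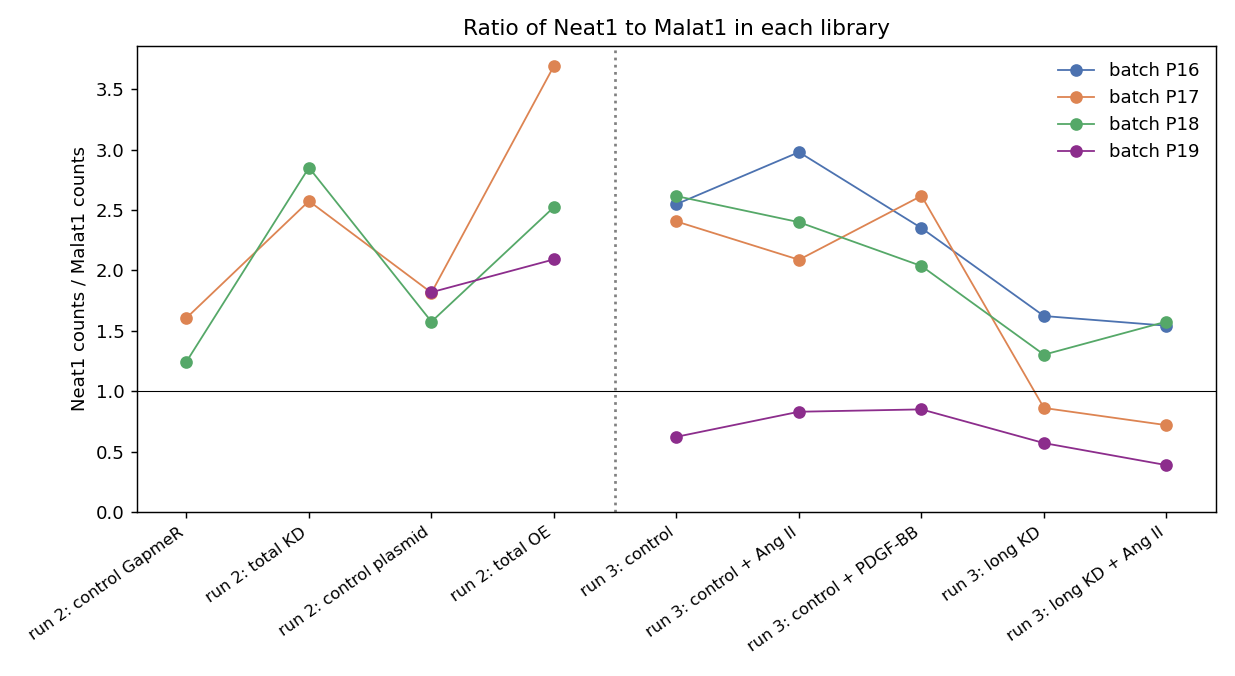
Ratio of Neat1 to Malat1 expected counts (y axis, linear from 0) in each library by group (x axis); lines join libraries of the same batch within a run, and the horizontal line marks equal counts. In run 2 the ratio is above the controls with overexpression and in the libraries labelled total knockdown, in run 3 it is lower with long knockdown in each of the 4 batches, and batch P19 of run 3 stays between 0.387 and 0.849.

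The other snoRNA host lncRNAs show where the 5 host members stand. The list held 14 further hosts with a match, all tested in run 3. With PDGF-BB 0 of these 14 rose and 3 fell, with a median log2 fold change of 0.04 beside -0.02 over all genes tested, of which 23.6% rose and 20.0% fell. With the replicate block 2 rose, Snhg15 and Snhg16, and 3 fell, where 28.3% and 26.2% of all genes did. Those that fell were Snhg18 (13.95 ± 1.83 to 8.48 ± 0.974 CPM, log2 fold change -0.72, edgeR adjusted p = 0.0027), Zfas1 (118 ± 8.76 to 74.0 ± 6.43 CPM, log2 fold change -0.68, edgeR adjusted p = 1.69e-07) and Snhg14 (11.7 ± 1.32 to 7.83 ± 1.68 CPM, log2 fold change -0.57, edgeR adjusted p = 0.017, SD, n = 4 each). Snhg14 was outside the rule for named genes and was named after its value was seen. With the 5 host members added, 5 of 19 fell and 0 rose, and with the replicate block 5 fell and 3 rose. Such shares are near or under those of all genes and are no result about the hosts.

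With long knockdown 12.3% of all genes tested rose and 12.8% fell in untreated cells, and 13.4% and 13.3% under angiotensin II. These shares were 20.0% and 20.6%, and 20.4% and 20.9%, with the replicate block. In untreated cells 1 of the 14 others rose, Snhg18 (13.95 ± 1.83 to 20.5 ± 5.80 CPM, log2 fold change 0.56, edgeR adjusted p = 0.0206), and 1 fell, Snhg6 (16.9 ± 0.817 to 11.2 ± 1.41 CPM, log2 fold change -0.60, edgeR adjusted p = 0.00113, SD, n = 4 each). Under angiotensin II Snhg6 passed, again lower (17.7 ± 2.28 to 10.7 ± 1.80 CPM, log2 fold change -0.72, edgeR adjusted p = 0.000225). With the replicate block Zfas1 also fell in untreated cells, and Snhg18 and Snhg20 also rose under angiotensin II. Their median log2 fold change was -0.05 in untreated cells and -0.06 under angiotensin II, beside 0.02 and 0.01 over all genes. In run 2, where 1.65% and 2.07% of all genes were called, 0 of 13 tested passed with overexpression or in the libraries labelled total knockdown. With the block, where 17.7% and 14.4% were called, 1 rose and 1 fell with overexpression and 1 rose in the libraries labelled total knockdown.

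**Figure D4:**
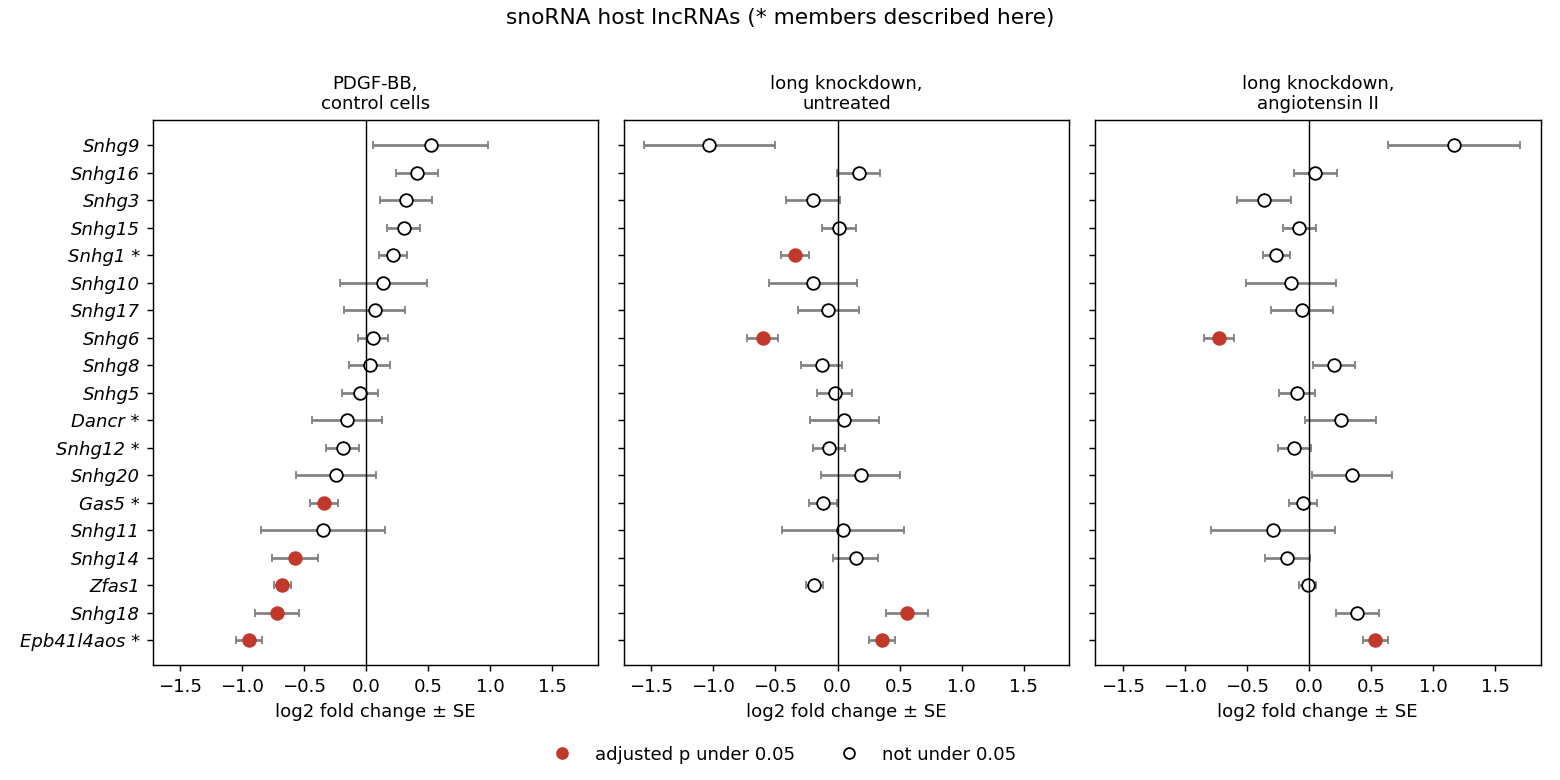
Log2 fold change (x axis, ± SE from the edgeR fit) of the 19 tested snoRNA host lncRNAs (y axis, ordered by the value under PDGF-BB, members described above marked with an asterisk) in 3 comparisons of run 3; filled points had an adjusted p under 0.05. The 5 hosts called with PDGF-BB without the replicate block are all negative, and Epb41l4aos and Snhg18 are on opposite sides of 0 with PDGF-BB and with untreated long knockdown.

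Genes of related machinery were read from further lists, beside the 23.6% of all genes that rose and the 20.0% that fell with PDGF-BB. Of the 8 snoRNP core proteins, which bind snoRNAs, 7 rose and 0 fell with PDGF-BB, among them Nop56 (67.2 ± 3.68 to 151 ± 20.5 CPM, log2 fold change 1.17, edgeR adjusted p = 4.92e-10) and the pseudouridine synthase Dkc1 (log2 fold change 1.07, edgeR adjusted p = 4.73e-08). Of 22 mRNAs known for a TOP start, mainly ribosomal proteins and elongation factors, 13 fell and 1 rose, with a median log2 fold change of -0.17. Eef2 fell by 0.41 and Rpl3 by 0.39 on the log2 scale (edgeR adjusted p = 8.19e-06 and 2.12e-06), and Eef1g rose by 0.45 (edgeR adjusted p = 3.38e-06). Of 14 factors of nonsense-mediated decay, the pathway known to degrade spliced Gas5, 5 rose and 2 fell, Smg6 and Smg1 being those that fell. In the fit with the replicate block 9 of these factors rose and 2 fell, 14 TOP mRNAs fell and 1 rose, and the snoRNP count was 7 again, where 28.3% of all genes rose and 26.2% fell. With long knockdown 0 snoRNP proteins passed in untreated cells and 3 fell with the replicate block, where 12.8% and 20.6% of all genes fell. Under angiotensin II 2 fell, Nop58 and Nop56, and 3 with the block, where 13.3% and 20.9% did, while Smg6 rose in both arms (log2 fold changes 0.68 and 0.80, edgeR adjusted p = 0.000372 and 7.88e-05).

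Proteins of the nuclear bodies of Neat1 and Malat1 were also measured. With PDGF-BB 10 of 15 paraspeckle proteins rose and 0 fell, beside 23.6% and 20.0% of all genes (12 and 0 with the replicate block, beside 28.3% and 26.2%), with a median log2 fold change of 0.42, led by Pspc1 (25.7 ± 1.64 to 54.7 ± 4.55 CPM, log2 fold change 1.09, edgeR adjusted p = 1.77e-09) and Rbm14 (log2 fold change 0.98, edgeR adjusted p = 1.82e-07), both core paraspeckle proteins. With long knockdown 2 rose and 2 fell in untreated cells, beside 12.3% and 12.8% of all genes, and 2 rose and 5 fell under angiotensin II, beside 13.4% and 13.3%. The counts with the replicate block were 4 and 5, and 3 and 7, against 40.6% and 41.3% of all genes called. The chromatin remodeller Smarca4 was higher in both (log2 fold changes 0.50 and 0.49) and Dazap1 lower in both (-0.56 and -0.45), with edgeR adjusted p from 1.98e-05 to 0.0011. Of 16 nuclear speckle and splicing proteins, 5 rose with PDGF-BB and 0 fell, but 7 rose and 6 fell with the replicate block. Those that rose in both included the splicing factor Srsf3 (log2 fold change 0.53, edgeR adjusted p = 2.77e-08). With long knockdown in untreated cells 1 rose and 1 fell, beside 12.3% and 12.8% of all genes, and 6 and 3 with the replicate block, beside 20.0% and 20.6%. Under angiotensin II it was 1 and 2, beside 13.4% and 13.3%, and 6 and 3 with the block, beside 20.4% and 20.9%.

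Other lncRNAs were read from a second list. Of 19 further broadly expressed lncRNAs tested in run 3, 2 rose and 3 fell with PDGF-BB, beside 23.6% and 20.0% of all genes, and 2 rose and 1 fell with long knockdown in untreated cells, beside 12.3% and 12.8%. The replicate block gave 2 and 5, beside 28.3% and 26.2% of all genes, and 9 and 2, beside 20.0% and 20.6%. Under angiotensin II 4 rose and 1 fell with long knockdown, beside 13.4% and 13.3%, and 6 and 1 with the block, beside 20.4% and 20.9%. The one that fell without the block in untreated cells was Mir22hg, the host of a microRNA (20.1 ± 3.88 to 11.9 ± 2.69 CPM, SD, n = 4 in each group, log2 fold change -0.75, edgeR adjusted p = 0.00515), and it fell again under angiotensin II (log2 fold change -0.83, edgeR adjusted p = 0.00256). Norad, a cytoplasmic lncRNA that binds Pumilio proteins, rose under angiotensin II from 301 ± 6.06 to 337 ± 12.6 CPM (log2 fold change 0.16, edgeR adjusted p = 0.0131).

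Likeness was measured as the Pearson correlation of log2 CPM over the 30 libraries, centred within each run, among 9961 genes, and it is given as a description because the libraries share batches, depth and treatments. Epb41l4aos had the closest companions, the receptor tyrosine kinase gene Kit (r = 0.92), Use1 (0.92) and Ascc1 (0.92). Gas5 was most like Zfas1 (0.84), another snoRNA host, then Mlxip and Tmem38b. Neat1 was most like Ercc6 (0.82), Rbm25 and Prpf38b, and Malat1 most like Tmem245 (0.81), Zfp462 and Tnrc6b. The closest genes were Lgalsl for Snhg1 (0.79), Deaf1 for Dancr (0.78), Nt5dc1 for Pvt1 (0.76) and Gypc for Snhg12 (0.75). No member had another member among its 3 closest genes.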

How the data were processed

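Values in the deposited table are RSEM expected counts for each gene and library, not scaled to depth. STAR 2.7.11b and RSEM 1.3.1, and the builds GRCm39 and mm10, are named in the submitters' processing notes, and the annotation and strandedness are not given in the sources used here. GENCODE M21 gave symbols to 51486 of 78334 identifiers, which held 98.7% of counts. Groups came from the code in the library name, because some titles number CASC15 upward across replicates. Expected counts were rounded and filtered with filterByExpr (minimum count 10, minimum total 15). They were scaled with TMM and fitted per run with the quasi-likelihood test of edgeR 4.0.16 (limma 3.58.1, R 4.3.3), two-sided, with Benjamini-Hochberg adjustment over all genes tested. Every adjusted p in the text comes from that test unless another is named. The code was tested on simulated data. Batch runs with replicate number: after removing group means, libraries of the same batch correlated at a mean r of 0.23 in run 2 and 0.197 in run 3, and other pairs at -0.121 and -0.0606, so a fit with the batch as a replicate block was run beside the main one. The labels do not say that libraries of a group came from separate animals, so p-values measure the spread between these libraries. Alternatives were DESeq2 1.42.0, RLE and upper-quartile scaling, no filter, a filter at a mean CPM of 1, a fit of the compared groups alone, a minimum change of 1 on the log2 scale, no batch P19, and each library left out. The members were always named. From each gene list the rule took at most 2 called genes in each direction per comparison with a mean CPM of at least 5, and for likeness the 3 closest genes. The members and lists were chosen with earlier results of these data known. Exon lengths and snoRNA positions came from GENCODE M21, and start-site sequences from RefSeq (GRCm38.p6), and no coordinates are taken from the table.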

Additional observations from a re-analysis of the deposited data

Results flagged for a closer look

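Among the 8 tested members, each of the 5 groups of 4 libraries in run 3 was searched for a library far from the other 3, by the gap to its nearest neighbour as a share of the group's whole range on the log2 CPM scale (40 groups, held against Dixon's 95% critical value). The 40 are 8 genes over the same 5 groups of libraries, so they are not independent. A chance rate of about 1 in 20 is therefore no reference for their count. A library stood out in 5 of the 40, and in all 5 it was the lowest and came from batch P19. In 4 of the 5 the gene was Gas5: the share was 0.9318 in the control with angiotensin II, 0.9194 in untreated long knockdown, 0.9036 in the control with PDGF-BB and 0.852 in long knockdown with angiotensin II. The fifth was Neat1 in the control with PDGF-BB, at 0.846.

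The test of the interaction called 0 of 8 members and 0% of all genes. The untreated and angiotensin II arms were thus not shown to differ. Standard errors of the members reached 0.488 (Malat1), so the test could not show that none differed.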

How the results depend on the processing

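Members called kept their number within 1.5 times in most alternatives, a count that includes comparisons where 0 stayed at 0. The number was kept in 12 of 17 alternatives with untreated long knockdown, 8 of 17 with long knockdown under angiotensin II and 13 of 17 with PDGF-BB. With overexpression, 0 called became 1 without a filter on low counts (Malat1, log2 fold change -0.58), where 1363 of 29867 genes were called. It was 1 with the replicate block, beside 2721 of 15350 genes. With long knockdown in untreated cells, 3 became 5 without batch P19, where 6062 of 15159 genes were called against 3783 of 15103 in the main fit. It was 0 to 3 when a library was left out, with 2889 to 4882 genes called. Under angiotensin II, 2 became 1 without a filter, where 3199 of 32656 genes were called. It was 1 to 3 when a library was left out, with 3042 to 4880 genes called, and 1 in 7 of the 8 such fits. With PDGF-BB, 2 became 5 with the replicate block, beside 8238 of 15103 genes, and 4 without P19, beside 7409 of 15159. It was 1 to 3 when a library was left out, with 5601 to 6624 genes called. Requiring a change of 1 on the log2 scale left 0 in each. The paired fit with the replicate block added Snhg12 with overexpression, Neat1 with untreated long knockdown, Snhg1 under angiotensin II, and Neat1, Malat1 and Snhg1 with PDGF-BB, and changed no other call of a member.

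Over 40 member and comparison pairs and 592 values, no called change turned sign. Uncalled changes did in 9 pairs. Leaving out a library moved Malat1 between -0.90 and 0.14, Dancr between -0.37 and 0.36 and Epb41l4aos between -0.23 and 0.32 in the libraries labelled total knockdown, and Neat1 between -0.043 and 0.27 and Dancr between -0.15 and 0.12 with overexpression. With untreated long knockdown it moved Malat1 between -0.0853 and 0.46, Dancr between -0.12 and 0.28 and Snhg12 between -0.12 and 0.008, and under angiotensin II Malat1 between -0.11 and 0.55. Dancr turned to -0.0058 with the replicate block in untreated long knockdown, and without P19 the values with overexpression were 0.0509 for Dancr and -0.0043 for Neat1. The cause was not tested. Upper-quartile scaling moved the median of all genes with PDGF-BB from -0.02 to -0.11. Miat, at 4 counts in all, could not be tested.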
